A study of Homo sapiens with 36 samples.

Results

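A2780 cis is a human ovarian cancer line made resistant to platinum by keeping the parental A2780 cells in cisplatin for a long time. 6 libraries of this line, grown in medium without serine and glycine, were compared here, chosen by their labels: 3 without drug (cis -SG, libraries 19, 20 and 21) and 3 with carboplatin (cis -SG carbo, libraries 22, 23 and 24). They are 6 of the 36 RNA-seq libraries of the series, which holds 12 conditions of 3 libraries each. The labels write the carboplatin dose as 6 with the unit M. The study used 6 µM in growth and tracer experiments on these lines, but its RNA-seq methods state no dose. The unit in the labels is therefore uncertain. The -SG medium was a homemade RPMI with dialyzed serum that lacked both amino acids. 4 further groups of 3 libraries entered the side-by-side comparisons: A2780 cis in complete medium (cis) and with carboplatin (cis carbo), and the platinum-sensitive A2780 wt cells in -SG medium (wt -SG) and with carboplatin (wt -SG carbo). The complete-medium groups are so named because their labels state no serine and glycine withdrawal. A2780 cis is 1 selected line, and the study describes the 3 libraries of a condition as technical replicates, so every p-value below measures the spread between such libraries and not between independent cultures. The comparison addresses what carboplatin changed in resistant cells that could not take up serine and glycine from the medium.

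Carboplatin forms platinum adducts and crosslinks on DNA. Cells with damaged DNA stabilise the transcription factor p53, which switches on the cell cycle inhibitor CDKN1A (p21), its own inhibitor MDM2, repair genes and death genes. p21 keeps the repressor complex DREAM on the promoters of mitotic and replication genes, many of which carry the short motifs printed below. Serine is made from a glycolytic intermediate by PHGDH, PSAT1 and PSPH, and its withdrawal activates ATF4, the transcription factor of the amino acid response, which drives those enzymes, amino acid transporters and aminoacyl-tRNA synthetases.

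Reads were counted per gene, and levels are given as CPM, read counts divided by the library's TMM-scaled total and set to a common scale, a correction for differences in library composition. Differences are log2 fold changes (carboplatin against no carboplatin) with their standard error (SE). A gene was called at an adjusted p under 0.05 in the quasi-likelihood test of edgeR, with p-values adjusted by the Benjamini-Hochberg method over all genes tested. The verbs rose and fell are kept for called genes. Levels compare 1 gene between libraries only, since CPM does not correct for transcript length. In bulk RNA a smaller share of cells expressing a gene and less RNA per cell cannot be told apart.

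The 6 libraries held between 15568737 and 18653653 counts on genes, inside the range of the 36 libraries (13074937 to 20441582). Libraries 23 and 24 stood apart from library 22 before any gene was compared. Reads that fell on no annotated exon made up 17.9% and 14.9% of their counts, against 8.53% in library 22, 6.92% to 7.95% in the cis -SG libraries and 4.21% to 9.31% in the other 34 libraries of the series. Long noncoding RNAs took 1.27% and 1.16% of their gene counts, against 0.975% in library 22 and 0.930% to 0.991% in the cis -SG libraries. With 2 of the 3 carboplatin libraries concerned, a library feature and the drug cannot be fully told apart, so results are also given without both of them, where library 22 alone is assumed to vary like the cis -SG libraries, and their part in each result was not tested beyond that. The lineage check found the mesenchymal filament VIM at 1649.7 to 1826.4 CPM and the epithelial keratin KRT18 at 38.5 to 42.2 CPM. Of the other epithelial and ovarian tumour markers, KRT7, KRT19, CDH1, MUC16 and PAX8 stayed under 0.2 CPM in all 6 libraries. KRT8 lay at 1.27 to 2.89 CPM, WT1 at 0.766 to 1.38 CPM and EPCAM at 0.203 to 0.766 CPM. The 13 measured immune, stromal and endothelial markers summed to 4.02 to 4.43 CPM without and 2.5 to 3.3 CPM with carboplatin, with the T cell gene CD3E and the globin gene HBB at 0 in all 6 libraries. VIM fell by 0.09 on the log2 scale, a fall not called without libraries 23 and 24 (edgeR adjusted p = 0.104). The single member of the second list that was tested, the collagen gene COL1A1, fell by 0.94 on the log2 scale.

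**Figure D1:**
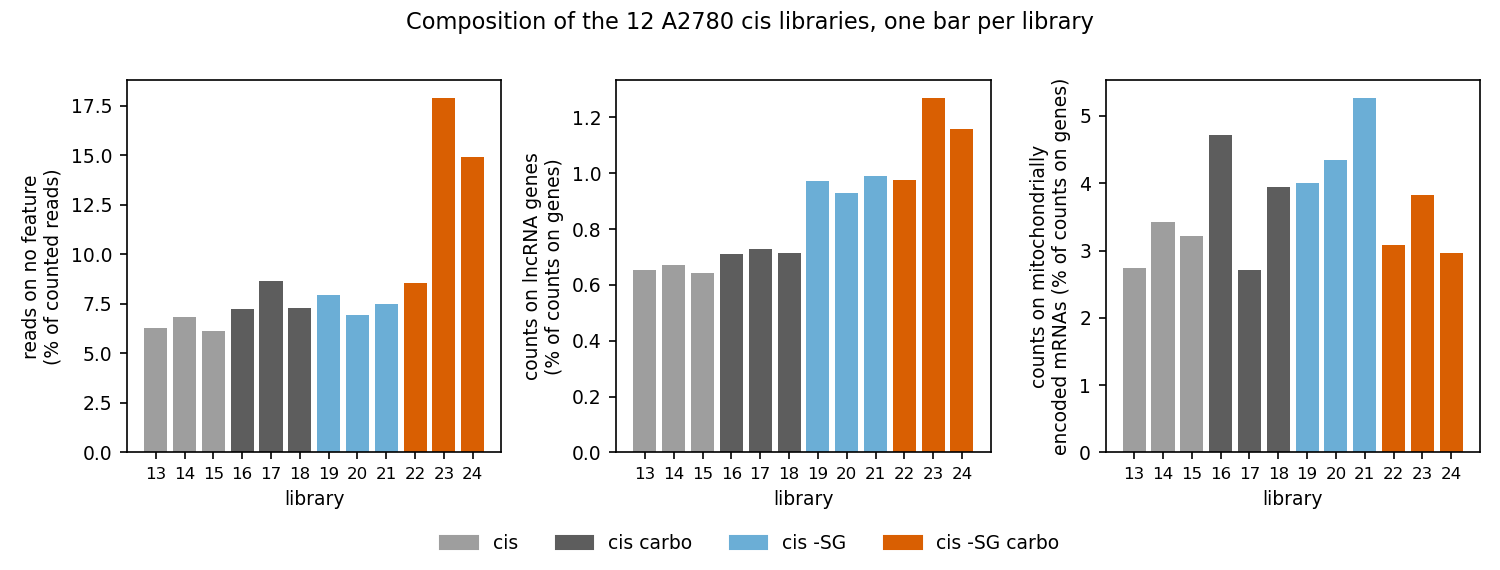
Composition of the 12 A2780 cis libraries, a bar for each library coloured by group, with reads on no feature (% of counted reads), lncRNA genes and mitochondrial mRNAs (% of counts on genes). Libraries 23 and 24 lie at 17.9% and 14.9% on no feature, and library 22 at 8.53% lies within the 4.21% to 9.31% of the 34 other libraries of the series.

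Carboplatin changed many genes by small amounts. Of 14476 genes tested, 3253 were called (22.5%), 1575 higher (10.9%) and 1678 lower (11.6%), and the called genes moved by a median of 0.25 in either direction on the log2 scale. Only 216 genes rose and 12 fell by at least 1 on the log2 scale. Scaled by total counts instead of TMM, 1919 of 3139 calls were higher. The fit without libraries 23 and 24 called 2173 of 14974 genes (14.5%), 1139 higher (7.61%) and 1034 lower (6.91%), and 1714 genes were called in the same direction in both fits, which is 52.7% of the first set and 78.9% of the second. No gene was called in opposite directions. With the share on no feature as a covariate, 2172 genes were called (15%), 1078 higher (7.45%) and 1094 lower (7.56%). The number of calls ran from 1666 without library 24 to 5224 without library 22, with 1771 without library 20 and 1940 without library 21.

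Targets of p53 rose. Of 33 tested members of a list of p53 targets, 25 rose and none fell (10.9% of all tested genes rose), with a median log2 fold change of 0.33 over the 33 against 0.00 over all genes. The count was 27 without libraries 23 and 24, and leaving out any 1 library gave 22 to 26. CDKN1A (ENSG00000124762, chromosome 6, 36644237 to 36655114 in GRCh37), the p21 inhibitor of cyclin-dependent kinases, had 152, 147 and 147 CPM in libraries 19, 20 and 21 and 332, 291 and 309 CPM in libraries 22, 23 and 24. All 3 treated libraries lay above all untreated ones, and the highest was library 22, which has the ordinary share of reads on no feature. The log2 fold change was 1.07 (SE 0.0424, edgeR adjusted p = 6.33e-08), and 1.17 without libraries 23 and 24.

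MDM2, the ubiquitin ligase that removes p53, went from 268, 278 and 259 CPM to 399.8, 413 and 402 CPM. The treated libraries were close together, and the log2 fold change was 0.60 (SE 0.0329, edgeR adjusted p = 2.62e-07). Other members that rose, named here after their values were seen, act in DNA repair and nucleotide supply. DDB2, a sensor of damaged bases in nucleotide excision repair, rose by 0.58 on the log2 scale, RRM2B, the p53-induced subunit of ribonucleotide reductase, by 0.49, the translesion polymerase POLH by 0.45 and the excision repair protein XPC by 0.23. RRM2B had 212, 212 and 202 CPM without and 296, 289.5 and 289 CPM with carboplatin. For each of these 4 genes the smallest treated library was above the largest untreated one. They were picked with these values known, and the share of all genes without overlap is not given. Their separation therefore adds no support. The long noncoding RNA PINCR, which is induced by p53, was among the largest rises of all genes, from 1.22, 1.72 and 1.52 CPM to 4.17, 5.13 and 4.72 CPM (log2 fold change 1.65, SE 0.182, edgeR adjusted p = 4.66e-05, and 1.49 without libraries 23 and 24).

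The 8 tested p53 targets that were not called include several with a role in cell death, singled out after their values were seen. BAX, the pore-forming effector of mitochondrial apoptosis, had 104, 102 and 107 CPM without and 111, 100.4 and 105 CPM with carboplatin (log2 fold change 0.03, SE 0.0398, edgeR adjusted p = 0.654). PMAIP1 (NOXA), a BH3-only activator of the same route, had 47.2, 43.9 and 46.5 CPM against 44.9, 44.2 and 44.7 CPM (log2 fold change -0.03, edgeR adjusted p = 0.683). For both genes the libraries of the groups overlapped. The death receptor TNFRSF10B had a log2 fold change of 0.05 (edgeR adjusted p = 0.286) and the BH3-only gene BBC3 (PUMA) one of 0.18 (edgeR adjusted p = 0.0606), with 75.2 CPM in library 22 but 60.9 in library 23 beside 59.8 to 60.9 without drug. BBC3 and TNFRSF10B passed the threshold without libraries 23 and 24, so those calls rest on the choice of libraries. In the wider BCL2 family, 2 of 15 tested members were called, a smaller share than the 22.5% of all genes. The death promoter HRK fell by 0.36 on the log2 scale, and its relative BIK, at no more than 1.17 CPM in any library and named after its values were seen, had a log2 fold change of 1.06 that did not pass without libraries 23 and 24 (edgeR adjusted p = 0.406).

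**Figure D2:**
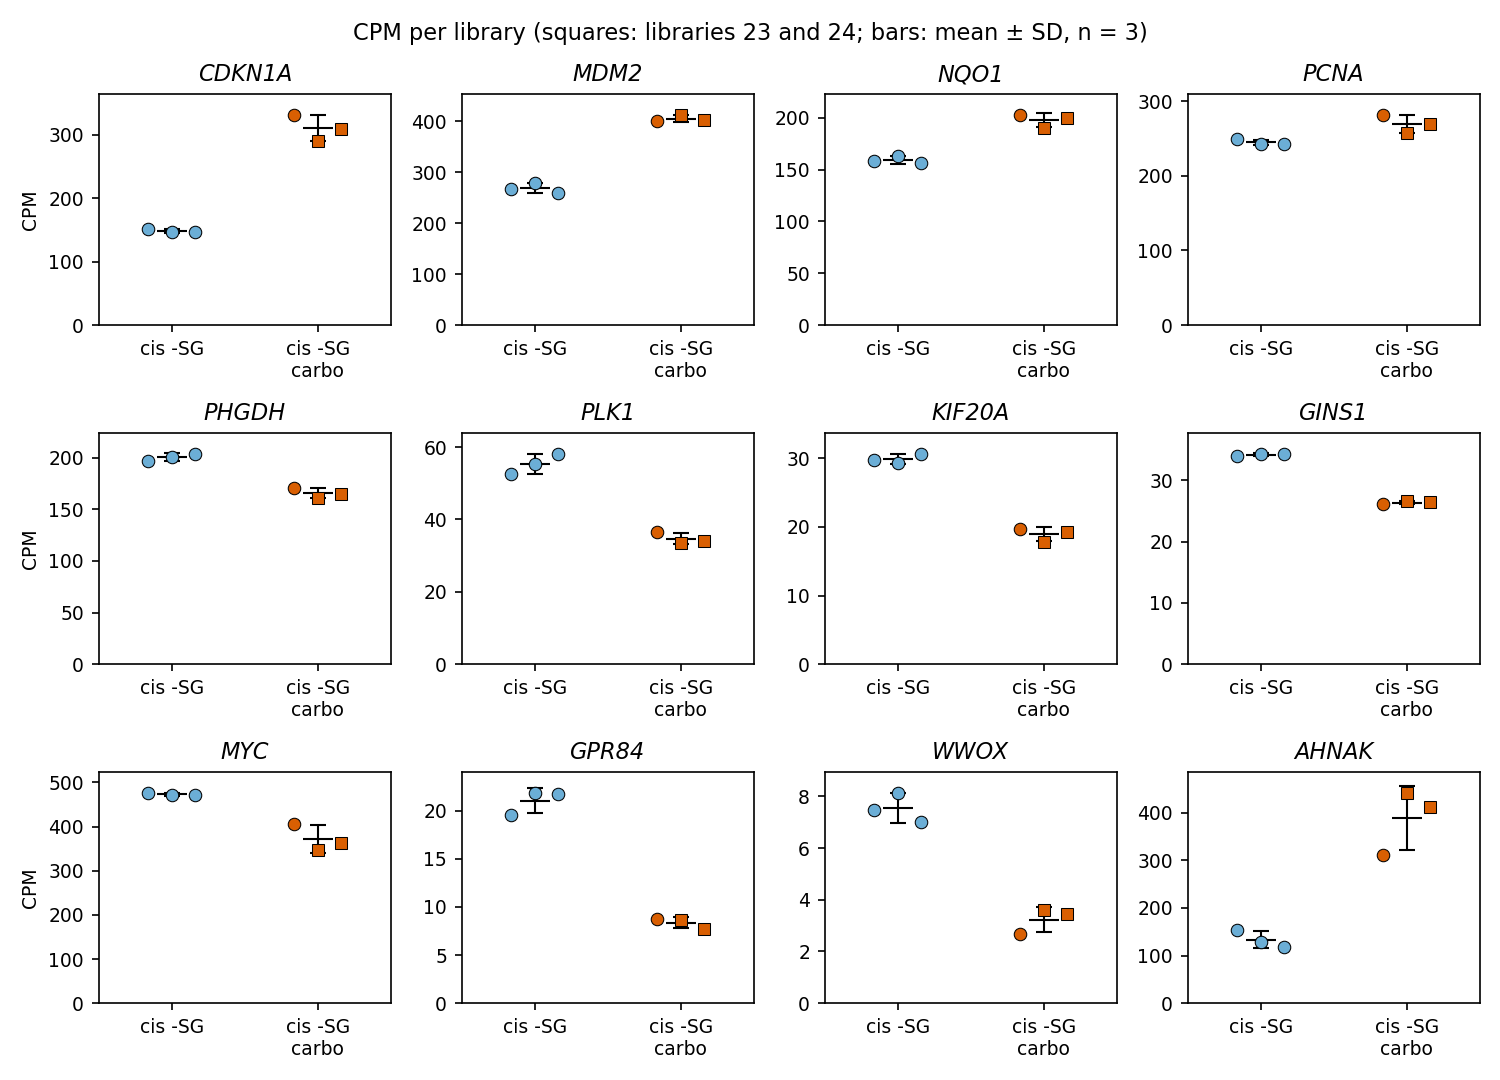
CPM (vertical axis, from 0) of 12 named genes in cis -SG and cis -SG carbo, with circles for libraries, squares for libraries 23 and 24, and bars for the mean ± SD (n = 3). CDKN1A lies at 147 to 152 CPM without and 291 to 332 CPM with carboplatin, PLK1 at 52.6 to 58.2 and 33.6 to 36.4 CPM, and AHNAK is higher in libraries 23 and 24 than in library 22.

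Genes of mitosis fell together. Of 34 tested G2/M and mitosis genes, 32 fell and none rose (11.6% of all genes fell), with a median log2 fold change of -0.46. The same count of 32 came from the fit without libraries 23 and 24, from the DESeq2 test and from total-count scaling. PLK1 (ENSG00000166851, chromosome 16, 23688977 to 23701688 in GRCh37), a kinase that drives entry into mitosis, had 52.6, 55.4 and 58.2 CPM without and 36.4, 33.6 and 34 CPM with carboplatin. The log2 fold change was -0.67 (SE 0.0527, edgeR adjusted p = 4.02e-06), and -0.59 without libraries 23 and 24. PLK1 was chosen by a filter that required groups without overlap. KIF20A, a kinesin of the central spindle, had 29.8, 29.3 and 30.7 CPM against 19.7, 17.8 and 19.3 CPM (log2 fold change -0.65, SE 0.0615, edgeR adjusted p = 1.42e-05). The 2 members that were not called, CENPF and MKI67, a kinetochore protein and the Ki-67 proliferation antigen, had log2 fold changes of 0.12 and 0.02. CENPF had 169 CPM in library 20 and 171 CPM in library 22, but 193 and 183 CPM in libraries 23 and 24.

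Promoters of these genes are shown because many mitotic genes share a pair of motifs close to the start, the CCAAT box bound by NF-Y and the cell cycle homology region, searched here as TTTGAA. The search covered both strands of the RefSeq promoter windows (GRCh38.p14), 250 bases before to 50 bases after the start. Of 34 listed mitotic genes 29 had an entry, with 36 windows, and 23 of those windows held TTTGAA (63.9%) and 30 held CCAAT (83.3%). Among all 35116 windows the shares were 15.2% and 34.6%, and among windows of the genes tested here they were 10.2% and 34.3%. Among windows of the genes that fell here they were 12.6% and 37.8%. The last 120 bases before the start of PLK1, chr16:23678769-23678888 on the plus strand, of KIF20A, chr5:138178992-138179111 on the plus strand, and of the cyclin gene CCNB2, chr15:59105026-59105145 on the plus strand, are printed with both motifs in capitals. CCNB2 fell by 0.53 on the log2 scale and was chosen for its motifs after the values were seen.
PLK1: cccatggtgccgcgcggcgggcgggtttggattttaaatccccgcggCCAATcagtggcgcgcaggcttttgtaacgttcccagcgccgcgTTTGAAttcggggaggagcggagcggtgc
KIF20A: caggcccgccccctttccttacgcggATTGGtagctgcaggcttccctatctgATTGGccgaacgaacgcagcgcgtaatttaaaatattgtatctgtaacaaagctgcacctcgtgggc
CCNB2: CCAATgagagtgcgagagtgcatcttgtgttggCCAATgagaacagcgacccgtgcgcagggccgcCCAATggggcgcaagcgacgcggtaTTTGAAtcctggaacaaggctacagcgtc
PLK1 holds CCAAT 73 and TTTGAA 29 bases before the start. CCNB2 holds TTTGAA at the same distance of 29 bases, with CCAAT copies 120, 87 and 54 bases before the start. KIF20A holds CCAAT on the other strand, read as ATTGG, 94 and 67 bases before the start and no TTTGAA in this window. A match is a description of letters and not a site.

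Genes of DNA replication and the G1/S transition fell by smaller amounts. Of 41 tested members, 26 fell and 1 rose, where 11.6% of all genes fell and 10.9% rose. The median log2 fold change of the list was -0.20, and -0.14 without libraries 23 and 24. GINS1, a subunit of the replicative helicase, had 34, 34.3 and 34.4 CPM without and 26.1, 26.6 and 26.5 CPM with carboplatin (log2 fold change -0.36, SE 0.0512, edgeR adjusted p = 2.66e-04). The treated libraries of GINS1 lay within 0.5 CPM of each other. Its partner GINS2 had 28, 27.5 and 25.5 CPM against 22.2, 21.1 and 19.3 CPM (log2 fold change -0.36, SE 0.0684, edgeR adjusted p = 0.00207). The helicase genes MCM7, MCM3 and MCM6, picked from the list after their values were seen, fell by 0.35, 0.35 and 0.26 on the log2 scale. The single member that rose was PCNA, the sliding clamp of replication and repair and itself a p53 target, with 249, 242 and 243 CPM against 282, 257 and 269.6 CPM (log2 fold change 0.15, SE 0.0347, edgeR adjusted p = 0.00793), and it was called in 3 of the 6 fits that leave out 1 library. Library 22 was the highest for PCNA and library 23 the lowest of the treated ones.

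For the replication genes the motifs searched were the E2F forms TTTGGCGC and TTTCCCGC. Of the 45 windows of 36 listed genes, 9 held the first (20%) and 11 the second (24.4%). The shares were 0.652% and 1.63% of all windows and 0.976% and 2.35% of windows of the genes tested. They were 1.64% and 3.27% of windows of genes that fell. The 120 bases before the start of GINS2, chr16:85688955-85689074 on the minus strand, and of MCM6, chr2:135876444-135876563 on the minus strand, are printed 5′ to 3′ on the gene's strand with these motifs in capitals.
GINS2: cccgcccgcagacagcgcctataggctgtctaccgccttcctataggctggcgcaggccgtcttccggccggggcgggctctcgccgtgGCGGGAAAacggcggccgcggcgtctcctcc
MCM6: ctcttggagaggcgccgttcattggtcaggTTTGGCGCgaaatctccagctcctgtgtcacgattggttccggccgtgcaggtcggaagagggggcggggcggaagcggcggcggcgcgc
GINS2 holds TTTCCCGC on the other strand, read as GCGGGAAA, 31 bases before the start. MCM6 holds TTTGGCGC 90 bases before the start.

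Some histone genes of S phase rose while replication genes fell. Of 6 tested members, 4 rose, where 10.9% of all genes rose. The median log2 fold change was 0.37, and 0.40 without libraries 23 and 24. The linker histone gene H1-2 had 9.53, 11.4 and 9.96 CPM without and 16.6, 13.4 and 15.9 CPM with carboplatin (log2 fold change 0.58, SE 0.1, edgeR adjusted p = 0.00117). H2AC6, a core histone gene, had 20.3, 19.8 and 19.2 CPM against 26.1, 25.3 and 27.6 CPM (log2 fold change 0.42, SE 0.0621, edgeR adjusted p = 3.69e-04). Both were chosen by a filter that required groups without overlap. The RNA was selected by poly(A), so only the polyadenylated part of histone messages was measured, and near-identical histone copies can share reads.

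Part of the serine and one-carbon genes fell slightly. Of 24 tested genes of serine synthesis, one-carbon metabolism and transsulfuration, 10 fell and 2 rose, with a median log2 fold change of -0.10, where 11.6% of all genes fell and 10.9% rose. In the fit without libraries 23 and 24, 8 fell and 2 rose (median -0.06). Of the 24, 7 were called without library 20, the lowest count when 1 library is left out. PHGDH (ENSG00000092621, chromosome 1, 120191034 to 120286841 in GRCh37), the first enzyme of the serine pathway, had 197, 201 and 204 CPM without and 171, 161 and 165 CPM with carboplatin. Library 22 was closest to the untreated libraries, but no treated library reached them. The log2 fold change was -0.27 (SE 0.0322, edgeR adjusted p = 8.58e-05), and -0.22 (edgeR adjusted p = 3.08e-05) without libraries 23 and 24.

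The following enzymes of the pathway moved less. PSAT1, the aminotransferase of the middle step, had 729, 729.8 and 706 CPM against 669, 633 and 664 CPM (log2 fold change -0.13, SE 0.0287, edgeR adjusted p = 0.00591). PSPH, the final phosphatase, had 107, 108 and 106 CPM against 101, 90.5 and 96.1 CPM (log2 fold change -0.15, SE 0.0411, edgeR adjusted p = 0.0218). Its call was lost without libraries 23 and 24, where the log2 fold change was -0.07 (edgeR adjusted p = 0.420). The transporters of serine and glutamine moved by similar amounts. SLC1A5 had 433, 445 and 432 CPM against 427, 377 and 389 CPM, so that library 22 nearly met the untreated ones (log2 fold change -0.13, edgeR adjusted p = 0.0424, and -0.02 without libraries 23 and 24, edgeR adjusted p = 0.770). SLC1A4 had 163, 165 and 169.6 CPM against 160.4, 144 and 154 CPM and was not called (log2 fold change -0.11, edgeR adjusted p = 0.0572). PSPH and SLC1A5 were each called in 1 of the 6 fits that leave out 1 library. Downstream, MTHFD1, the cytosolic enzyme that carries one-carbon units on folate, fell by 0.28 and MAT2A, which makes the methyl donor S-adenosylmethionine, fell by 0.28 on the log2 scale. Among the members that rose was CTH, the enzyme of cysteine synthesis from cystathionine, with a log2 fold change of 0.16. CTH was not called without libraries 23 and 24 (edgeR adjusted p = 0.150).

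Of 30 tested ATF4 and amino acid response genes, 17 fell and 3 rose, where 11.6% of all genes fell and 10.9% rose. The median log2 fold change was -0.15, and -0.08 without libraries 23 and 24. The count depended on the libraries: leaving out 1 library gave from 9 calls (without library 20) and 12 (without library 24) to 23 (without library 22). ATF4 itself had a log2 fold change of -0.07 (edgeR adjusted p = 0.158) and the asparagine synthetase gene ASNS one of -0.07 (edgeR adjusted p = 0.0939). DDIT4, an inhibitor of mTORC1, had 145, 140.2 and 141 CPM without and 124, 105 and 117 CPM with carboplatin (log2 fold change -0.29, SE 0.0479, edgeR adjusted p = 0.00110). SLC7A5, the leucine transporter, had 851, 879.9 and 841 CPM against 779, 638 and 689 CPM (log2 fold change -0.28, SE 0.0696, edgeR adjusted p = 0.0336). Without libraries 23 and 24 the log2 fold changes were -0.19 for DDIT4 and -0.13 for SLC7A5, both called. For both genes library 23 was the lowest and library 22 the highest of the treated libraries. SLC7A11, the cystine importer, rose from 156, 156 and 143 CPM to 172, 192 and 189 CPM (log2 fold change 0.29, SE 0.0486, edgeR adjusted p = 0.00168, and 0.19 without libraries 23 and 24). GDF15, a secreted stress cytokine that both ATF4 and p53 control, had 226, 232 and 226 CPM against 394, 282 and 337 CPM. Its treated libraries differed more from each other than the untreated ones did, and the log2 fold change of 0.57 (SE 0.130, edgeR adjusted p = 0.0408) became 0.80 without libraries 23 and 24. GDF15 was called in 2 of the 6 fits that leave out 1 library.

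Of the 20 cytosolic aminoacyl-tRNA synthetases, which load transfer RNAs with amino acids, 10 fell and none rose, where 11.6% of all genes fell. The median log2 fold change was -0.10, and -0.07 without libraries 23 and 24. The number called was 6 without library 20. WARS1, which loads tryptophan, had 369, 383 and 377 CPM without and 317, 313 and 310 CPM with carboplatin (log2 fold change -0.26, SE 0.0284, edgeR adjusted p = 4.87e-05). AARS1, which loads alanine, had 758, 761 and 762 CPM against 708, 661 and 671 CPM (log2 fold change -0.15, SE 0.0288, edgeR adjusted p = 0.00217, and -0.09 without libraries 23 and 24). WARS1 was even among the treated libraries. The seryl-tRNA synthetase gene SARS1, named for the amino acid withdrawn, had a log2 fold change of 0.03 (edgeR adjusted p = 0.455). The core of the amino acid response element, TGATGCAA, was found in 6 of the 21 windows of 16 synthetase genes (28.6%). It was in 0.866% of all windows, 0.527% of windows of the genes tested and 1.12% of windows of genes that fell. The motif is shown in the promoter of IARS1, chr9:92293698-92293817 on the minus strand. IARS1 fell by 0.13 on the log2 scale and was chosen for this motif after its values were seen.
IARS1: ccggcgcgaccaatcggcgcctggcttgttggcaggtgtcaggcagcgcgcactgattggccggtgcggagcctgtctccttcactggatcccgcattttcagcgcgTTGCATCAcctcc
The capitals mark the motif on the other strand, read as TTGCATCA, 13 bases before the start.

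**Figure D3:**
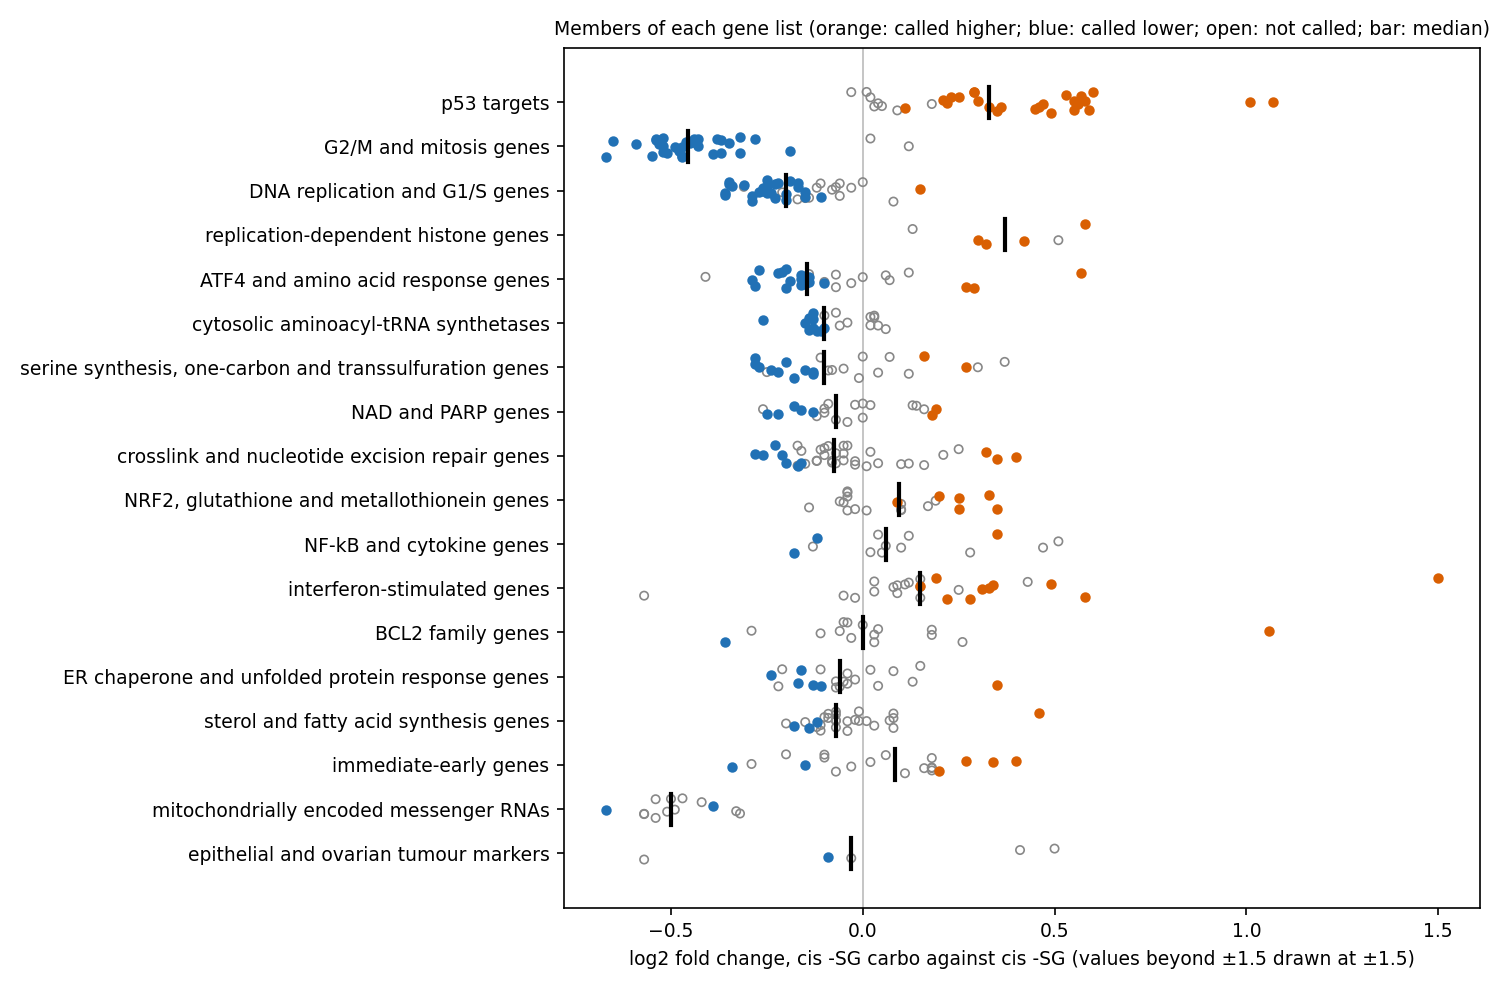
Log2 fold change (carboplatin against no carboplatin in -SG medium) of every tested member of the gene lists, a row for each list and a point for each gene, orange and blue for called higher and lower, open for not called, a bar for the median, and 1 interferon-stimulated gene past 1.5 drawn at 1.5. Of the p53 targets 25 of 33 rose, and of the G2/M and mitosis genes 32 of 34 fell.

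PARP1, the enzyme that uses NAD to mark DNA breaks, had 369, 375 and 374 CPM without and 347, 314 and 331 CPM with carboplatin (log2 fold change -0.16, SE 0.0340, edgeR adjusted p = 0.00396). The groups did not overlap, but without libraries 23 and 24 the log2 fold change was -0.09 (edgeR adjusted p = 0.0657). Of 21 tested NAD and PARP genes, 5 fell and 2 rose, with a median of -0.07, where 11.6% of all genes fell and 10.9% rose. Without libraries 23 and 24, 4 of 22 fell and 1 rose, where 6.91% of all genes fell and 7.61% rose. NNT, the mitochondrial transhydrogenase that makes NADPH, fell by 0.25, and PARP2, a relative of PARP1, by 0.22 on the log2 scale. PARP4, the vault PARP, rose from 121, 123 and 118 CPM to 139.5, 135 and 137 CPM (log2 fold change 0.19), and NADSYN1, the last enzyme of NAD synthesis from nicotinic acid, had a log2 fold change of 0.18 that was not called without libraries 23 and 24 (edgeR adjusted p = 0.271). NAMPT, the main NAD salvage enzyme, had a log2 fold change of -0.09 (edgeR adjusted p = 0.144).

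Among 38 tested genes of crosslink and nucleotide excision repair, 7 fell and 3 rose (median log2 fold change -0.08), a share near that of all genes. The number called was 16 without library 22. UBE2T, the ubiquitin-conjugating enzyme of the Fanconi anaemia pathway, had 41.9, 40.6 and 40.7 CPM without and 33.1, 34.1 and 33.3 CPM with carboplatin (log2 fold change -0.28, SE 0.0476, edgeR adjusted p = 9.31e-04). Its substrate FANCD2 had 55.0, 55.3 and 55.0 CPM against 43.2, 46.1 and 47.6 CPM (log2 fold change -0.26, SE 0.0472, edgeR adjusted p = 0.00157). Both fell also without libraries 23 and 24. REV3L, the catalytic subunit of the translesion polymerase zeta, rose from 62.4, 60.8 and 56.0 CPM to 71.0, 85.9 and 78.8 CPM (log2 fold change 0.40, SE 0.0701, edgeR adjusted p = 0.00312, and 0.26 without libraries 23 and 24), with libraries 23 and 24 above library 22. ERCC6, a helicase of transcription-coupled repair, had a log2 fold change of 0.35 (edgeR adjusted p = 0.0424), which was not called without libraries 23 and 24 (edgeR adjusted p = 0.199). The nuclease subunit ERCC1, the remaining member that rose, which overlaps an antisense gene and was named after its values were seen, had 165, 165 and 173 CPM against 210.2, 203 and 209.7 CPM.

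Of 20 tested NRF2, glutathione and metallothionein genes, 6 rose and none fell, where 10.9% of all genes rose. The median log2 fold change was 0.10, and 0.12 without libraries 23 and 24. The quinone reductase NQO1 had 158, 163 and 156 CPM without and 203, 190.4 and 199.9 CPM with carboplatin (log2 fold change 0.33, SE 0.0338, edgeR adjusted p = 2.97e-05). The metal-binding protein gene MT2A had 20.6, 22.4 and 21.5 CPM against 29.7, 25.2 and 26.8 CPM (log2 fold change 0.35, SE 0.0697, edgeR adjusted p = 0.00298). Both were highest in library 22.

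Of 13 tested NF-kB and cytokine genes 3 were called, a share near the 22.5% of all genes, namely the cytokine LIF, which rose by 0.35 on the log2 scale, and NFKB1 and NFKBIA, a subunit of NF-kB and its inhibitor, which fell by 0.18 and 0.12. Neither fall was called without libraries 23 and 24 (edgeR adjusted p = 0.487 for NFKB1 and 0.173 for NFKBIA). Of 25 tested interferon-stimulated genes 10 rose, where 10.9% of all genes rose, and none fell (median 0.15), and 7 of 27 rose without libraries 23 and 24. The count was 6 without library 19, 20, 21 or 24. ISG20, an antiviral exonuclease, had 5.10, 4.81 and 5.38 CPM without and 8.17, 6.78 and 7.77 CPM with carboplatin (log2 fold change 0.58, SE 0.116, edgeR adjusted p = 0.00299). The RNA sensor RIGI had 13, 12.4 and 11.7 CPM against 14.7, 17.7 and 19.3 CPM (log2 fold change 0.49, SE 0.0986, edgeR adjusted p = 0.00357), with libraries 23 and 24 the higher ones and no call without them (edgeR adjusted p = 0.130).

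Of 21 tested genes of endoplasmic reticulum chaperones and the unfolded protein response, 5 fell and 1 rose. Of all genes, 11.6% fell and 10.9% rose. Scaling by total counts gave 4 and 4 for the list, so no common direction is stated. The number called was 3 without library 20 or 24 and 12 without library 22. EDEM1, which sends misfolded glycoproteins to degradation, rose by 0.35 and the chaperones HYOU1 and HSPA5 fell by 0.24 and 0.17 on the log2 scale, and by 0.16 and 0.08 without libraries 23 and 24. Of 28 tested sterol and fatty acid genes 4 were called, a smaller share than the 22.5% of all genes. The cholesterol carrier STARD4 had 221, 219 and 217 CPM without and 301, 295 and 303 CPM with carboplatin, with little spread in either group (log2 fold change 0.46, SE 0.0284, edgeR adjusted p = 7.46e-07). The monooxygenase SQLE and the elongase ELOVL6 fell by 0.18 and 0.14, and neither was called without libraries 23 and 24. Among 20 immediate-early genes 4 rose and 2 fell, where 10.9% of all genes rose and 11.6% fell. Their median log2 fold change was 0.08, and 0.16 without libraries 23 and 24. The number called was 3 without library 19, 20, 21 or 24 and 10 without library 23. FOSL1, a partner of JUN in AP-1, had 25.2, 26.1 and 27.2 CPM against 34.6, 34.6 and 33.9 CPM (log2 fold change 0.40), and the matrix protein gene CCN1 rose by 0.34. MYC, the growth-promoting transcription factor, had 477, 471 and 471 CPM against 406, 346 and 362 CPM (log2 fold change -0.34, SE 0.0491, edgeR adjusted p = 0.00122, and -0.21 without libraries 23 and 24), and the repressor KLF10 fell by 0.15, a fall not called without libraries 23 and 24 (edgeR adjusted p = 0.131).

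All 13 messenger RNAs encoded by the mitochondrial genome had a negative log2 fold change (median -0.50), but only MT-CO2 and MT-ND3, subunits of complexes IV and I, were called. MT-CO2 had 3180.7, 3399.5 and 3886.2 CPM without and 2212.3, 2412.2 and 1929.3 CPM with carboplatin (log2 fold change -0.67, SE 0.122, edgeR adjusted p = 0.0254). The DESeq2 test called 9 of the 13, and none passed without libraries 23 and 24, where the median was -0.60. Most of the 13 messages share 1 precursor, so they are not independent. Together they made up 4%, 4.34% and 5.27% of the gene counts in libraries 19, 20 and 21 and 3.08%, 3.83% and 2.97% in libraries 22, 23 and 24.

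The largest rises were of low-level or long transcripts that libraries 23 and 24 raised most. TNFSF14, a cytokine of the tumour necrosis factor family, had 1.53, 1.31 and 1.07 CPM without and 3.22, 11.5 and 8.77 CPM with carboplatin (log2 fold change 2.59, SE 0.612, edgeR adjusted p = 0.0436), and 1.32 without libraries 23 and 24. It was called in 1 of the 6 fits that leave out 1 library. The zinc finger gene ZNF506 had 2.29, 1.83 and 1.57 CPM against 3.56, 8.66 and 7.94 CPM (log2 fold change 1.83, and 0.91 without both libraries). AHNAK (ENSG00000124942, chromosome 11, 62201014 to 62323707 in GRCh37), a giant scaffold protein, had 154, 128 and 118 CPM against 312, 442 and 411 CPM. Library 22 was above every untreated library, which the filter on overlap required, and libraries 23 and 24 were higher still. The log2 fold change of AHNAK was 1.55 (SE 0.190, edgeR adjusted p = 0.00890), and 1.24 without libraries 23 and 24, where it was not called (edgeR adjusted p = 0.0931). RSKR, NEB, RP11-1109M24.11 and ANKRD36C followed the same order, with log2 fold changes of 1.83, 1.62, 1.57 and 1.47 that became 0.82, 0.90, 0.66 and 0.66 without the 2 libraries, where RSKR and RP11-1109M24.11 were not called. RP11-1109M24.11 was called in 1, ANKRD36C in 2 and RSKR in 3 of the fits that leave out 1 library. These values move with the share of reads on no feature, and the part of that share in them was not tested.

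The largest falls did not have that pattern. GPR84 (ENSG00000139572, chromosome 12, 54756229 to 54758271 in GRCh37), a receptor for medium-chain fatty acids, had 19.6, 21.9 and 21.7 CPM without and 8.78, 8.60 and 7.72 CPM with carboplatin, and library 22 sat with the other treated libraries. Its log2 fold change was -1.32 (SE 0.0841, edgeR adjusted p = 7.46e-07), and -1.25 without libraries 23 and 24. WWOX, an oxidoreductase encoded across the fragile site FRA16D, had 7.49, 8.15 and 7.01 CPM against 2.67, 3.59 and 3.44 CPM (log2 fold change -1.21, SE 0.139, edgeR adjusted p = 6.05e-05). For WWOX library 22 was the lowest, and the log2 fold change without the other treated libraries was -1.49. PITPNM3, a phosphatidylinositol transfer protein, had 48.9, 45.7 and 40.8 CPM against 22.1, 20 and 23 CPM (log2 fold change -1.04, SE 0.0740, edgeR adjusted p = 3.49e-06). The synaptic scaffold gene DLGAP1, the homeobox gene BARX2, the hair keratin KRT81 and the adaptor LIME1 fell by 0.98, 0.90, 0.89 and 0.80 on the log2 scale, and all but LIME1 were called without libraries 23 and 24 as well (edgeR adjusted p = 0.111 for LIME1).

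**Figure D4:**
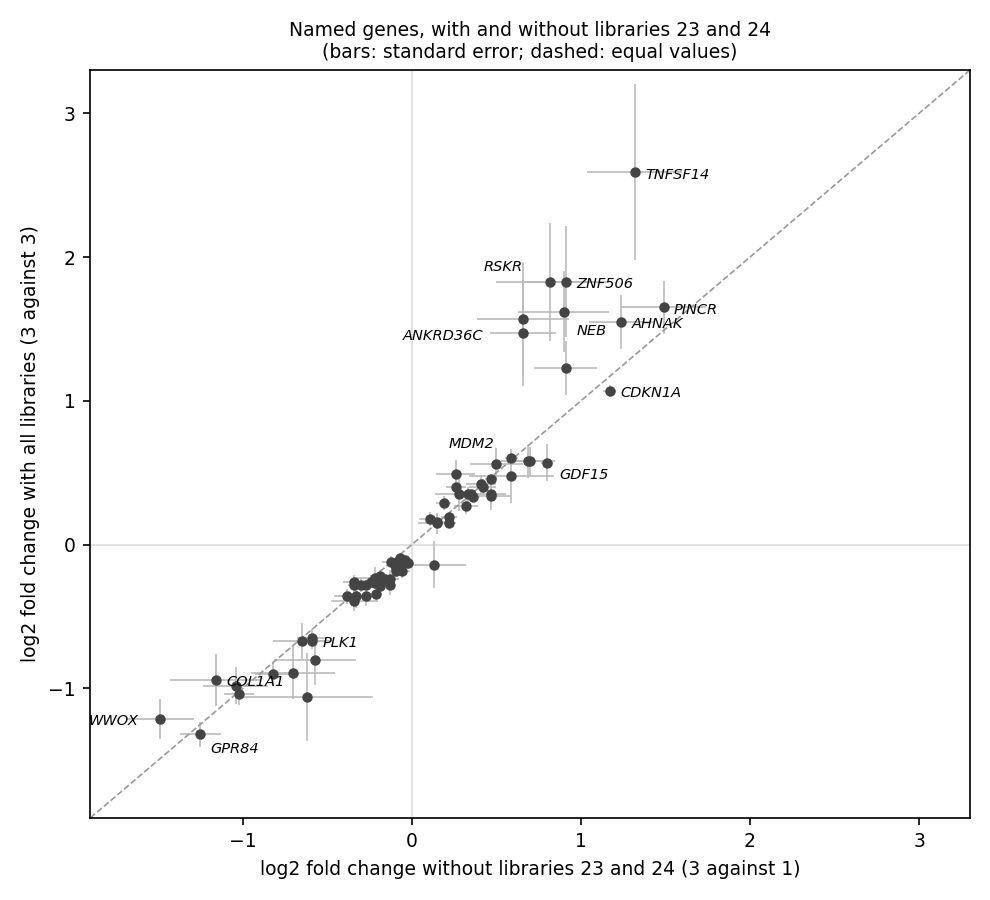
Log2 fold change of the named genes with all 6 libraries (vertical axis) against the value without libraries 23 and 24 (horizontal axis), with bars for the standard error and a dashed line for equal values. Most genes lie near the line, while TNFSF14 (2.59 against 1.32), RSKR (1.83 against 0.82) and ZNF506 (1.83 against 0.91) lie well above it.

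The same drug in the same line in complete medium called 2702 of 13458 genes (20.1%), 1247 higher (9.27%) and 1455 lower (10.8%). There 31 of 32 tested p53 targets rose (median 0.49) and 26 of 34 mitotic genes fell (median -0.16). The difference between both responses was tested as an interaction in the 12 libraries of the cis line, where 1787 of 14797 genes were called (12.1%), 874 with a higher (5.91%) and 913 with a lower (6.17%) log2 fold change in -SG medium. Scaled by total counts, 1131 of 1810 calls were higher. The fit without libraries 23 and 24 called 1340 of 15360 genes (8.72%), 579 higher (3.77%) and 761 lower (4.95%), and 1035 were shared in direction with the first set.

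For 16 of 33 p53 targets the response was smaller in -SG medium, and for none was it larger. Of all genes in this test, 6.17% had a lower and 5.91% a higher log2 fold change in -SG medium. The count was 14 without libraries 23 and 24. CDKN1A went from 91.1 ± 0.861 to 321 ± 2.53 CPM (mean ± SD, n = 3) in complete medium and from 149 ± 3.16 to 311 ± 20.6 CPM in -SG medium. The treated levels were 321 and 311 CPM and the untreated level was higher in -SG medium, so the log2 fold changes were 1.83 and 1.07 (interaction -0.75, SE 0.0519, edgeR adjusted p = 1.93e-10). BAX rose by 0.46 on the log2 scale in complete medium, from 121 ± 4.12 to 165 ± 0.732 CPM, beside 104 ± 2.58 and 105 ± 5.06 CPM in -SG medium (interaction -0.43, SE 0.0522, edgeR adjusted p = 3.23e-06, and -0.38 without libraries 23 and 24). PMAIP1 went from 16.4 ± 0.856 to 23.8 ± 1.81 CPM in complete medium, beside 45.9 ± 1.75 and 44.6 ± 0.371 CPM in -SG medium (interaction -0.57, edgeR adjusted p = 4.10e-05). For BAX the treated level in complete medium was the highest of the 4 groups, while for PMAIP1 both -SG groups were above both complete-medium groups. MDM2, in contrast, had log2 fold changes of 0.49 and 0.60 and an interaction of 0.12 (edgeR adjusted p = 0.0939).

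For 23 of 34 mitotic genes the log2 fold change was lower in -SG medium, where it was lower for 6.17% of all genes. The median interaction of the list was -0.29, and -0.26 without libraries 23 and 24. PLK1 stood at 213 ± 1.18 and 183 ± 7.24 CPM in complete medium and at 55.4 ± 2.78 and 34.7 ± 1.52 CPM in -SG medium (interaction -0.45, SE 0.0595, edgeR adjusted p = 8.46e-06). Its level was thus lower in -SG medium before any drug. KIF2C, a kinesin that dismantles microtubules, and UBE2C, which feeds the anaphase-promoting complex, both named after their values were seen, had log2 fold changes of 0.00 and 0.01 in complete medium and of -0.54 in -SG medium. Of the 41 replication genes, 6 had a lower response in -SG medium, beside 6.17% of all genes. The median interaction of this list was -0.06, and -0.04 without libraries 23 and 24.

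The amino acid response genes also differed between media. Of 30 ATF4 and amino acid response genes, 14 had a lower response in -SG medium and none a higher one. Of all genes, 6.17% had a lower and 5.91% a higher one. The median interaction of the list was -0.18, and -0.13 without libraries 23 and 24. In complete medium 12 of 29 rose and 5 fell, where 9.27% of all genes rose and 10.8% fell. GDF15 went from 45.7 ± 3.41 to 201 ± 11.1 CPM in complete medium and from 228 ± 3.48 to 338 ± 55.7 CPM in -SG medium (interaction -1.57, SE 0.167, edgeR adjusted p = 5.49e-04). DDIT4 went from 29.2 ± 1.22 to 39.3 ± 3.19 CPM and from 142 ± 2.73 to 115 ± 9.16 CPM (interaction -0.72, edgeR adjusted p = 9.53e-06). Untreated cells in -SG medium already held more of both messages than treated cells in complete medium. The stress transcription factor ATF3, named after its values were seen, showed the same order of levels, with 8.81 ± 0.215 and 14.2 ± 1.1 CPM in complete medium and 74.1 ± 0.907 and 73.3 ± 1.5 CPM in -SG medium (interaction -0.71, edgeR adjusted p = 3.92e-06). MYC rose by 0.17 on the log2 scale in complete medium and fell by 0.34 in -SG medium (interaction -0.51, edgeR adjusted p = 5.34e-05). The response of PHGDH was not shown to depend on the medium, with log2 fold changes of -0.21 and -0.27 (interaction -0.05, SE 0.0474, edgeR adjusted p = 0.569).

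Higher responses in -SG medium were seen for 6 of 26 interferon-stimulated genes, beside 5.91% of all genes, and for single genes. The median interaction of the interferon list was 0.15, and 0.16 without libraries 23 and 24. NQO1 held 89.6 ± 3.71 and 89.7 ± 1.05 CPM in complete medium, beside 159 ± 3.31 and 198 ± 6.54 CPM in -SG medium (interaction 0.32, edgeR adjusted p = 1.08e-04). UTRN, a relative of dystrophin, fell by 0.67 on the log2 scale in complete medium and rose by 0.56 in -SG medium (interaction 1.23, edgeR adjusted p = 4.14e-06). GPR84 went from 2.13 ± 0.364 to 3.33 ± 0.295 CPM in complete medium, the opposite of its fall from 21.1 ± 1.25 to 8.37 ± 0.571 CPM in -SG medium (interaction -1.97, SE 0.191, edgeR adjusted p = 1.05e-07).

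**Figure D5:**
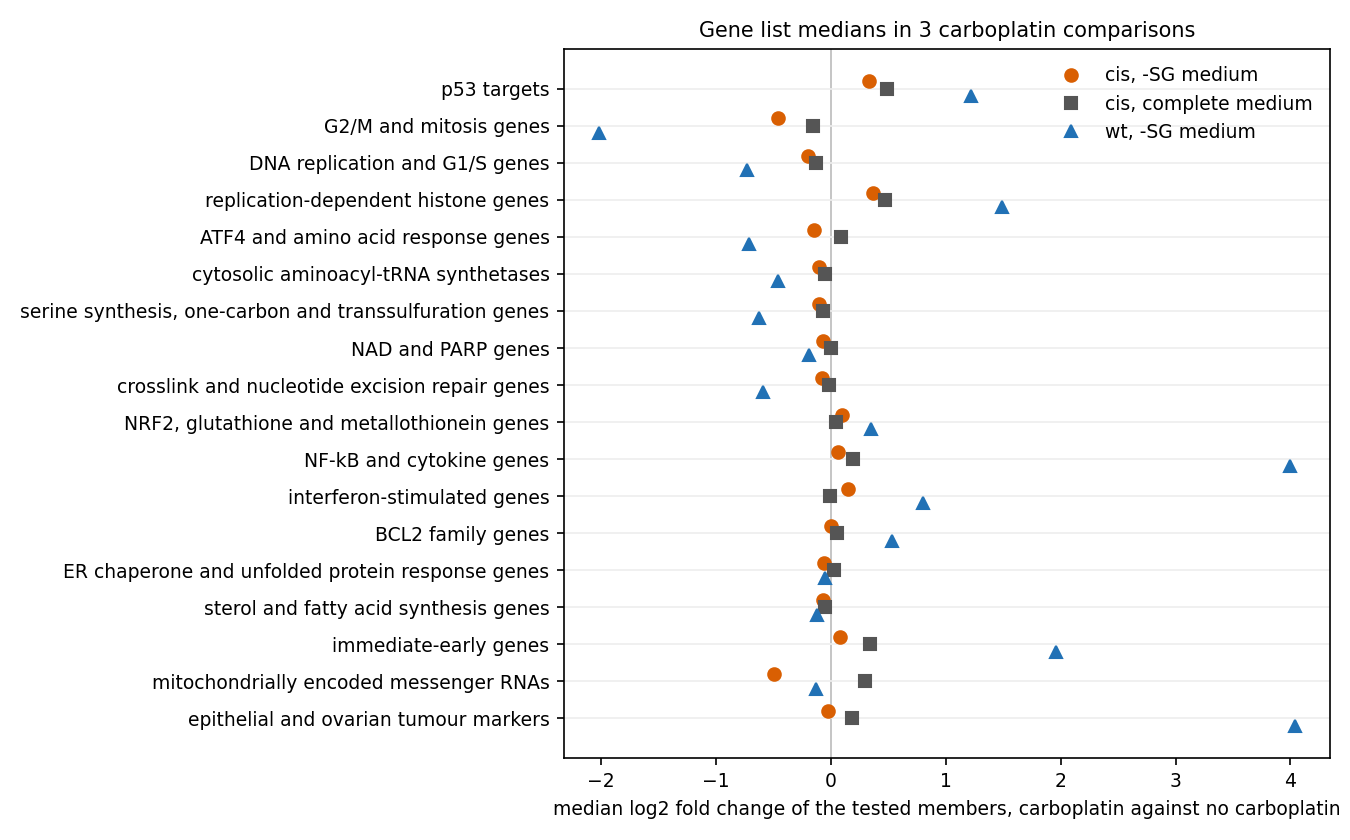
Median log2 fold change (carboplatin against no carboplatin) of the tested members of each gene list in cis cells without serine and glycine, cis cells in complete medium and wt cells without serine and glycine. The medians of the p53 targets are 0.33, 0.49 and 1.22, and those of the G2/M and mitosis genes -0.46, -0.16 and -2.02. The first and second comparisons share no libraries.

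Sensitive wt cells in the same -SG medium with carboplatin showed a far wider response, with 9969 of 14467 genes called (68.9%), 4966 higher (34.3%) and 5003 lower (34.6%), and the called genes moved by a median of 0.70 in either direction on the log2 scale. The line by carboplatin interaction was called for 8757 of 15803 genes (55.4%), 4359 with a higher (27.6%) and 4398 with a lower (27.8%) log2 fold change in cis cells, and without libraries 23 and 24 for 7359 of 16818 (43.8%; 22.1% higher and 21.7% lower). CDKN1A went from 132 ± 1.24 to 1797.2 ± 107 CPM in wt cells, and the untreated levels of 132 and 149 CPM in the lines were close (interaction -2.72, SE 0.0820, edgeR adjusted p = 1.51e-14). All 34 mitotic genes fell in wt cells (median -2.02), and all 34 had a higher log2 fold change in cis cells. PLK1 went from 132 ± 3.62 to 26.8 ± 1.42 CPM in wt cells, to a level below the 34.7 ± 1.52 CPM of treated cis cells.

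PHGDH fell from 531 ± 5.92 to 164 ± 10.4 CPM in wt cells, a level next to the 166 ± 4.73 CPM of treated cis cells, which had started from 201 ± 3.47 CPM (interaction 1.40, SE 0.0734, edgeR adjusted p = 2.61e-11). PSAT1 fell from 1072.9 ± 12.2 to 424 ± 17.6 CPM in wt cells and ended below the 655 ± 19.2 CPM of treated cis cells. PARP1 fell by 0.89 on the log2 scale in wt cells, beside 0.16 in cis cells (interaction 0.70, edgeR adjusted p = 4.15e-07). All 16 tested NF-kB and cytokine genes rose in wt cells (median 4), where 34.3% of all genes rose. All 16 had a lower response in cis than in wt cells, as did 27.8% of all genes. GPR84 rose from 3.67 ± 0.917 to 128 ± 9.02 CPM in wt cells where it fell in cis cells (interaction -6.45, edgeR adjusted p = 8.13e-16). The 13 mitochondrial messages had a median of -0.13 in wt cells, and the edgeR interaction called none of them in either pair of conditions.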

How the data were processed

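RNA from A2780 cells was made into libraries with a Lexogen SENSE kit after poly(A) selection and sequenced as single reads on a HiSeq2500. Per the labels and the study's methods, the authors aligned reads with STAR to GRCh37.p13 and counted them over exons of protein-coding genes with HTSeq on GENCODE v19, although the table also lists long noncoding RNAs, and the deposited values are raw counts per gene with no normalization. The strand setting of the counting is not given in the sources used here, so overlapping antisense genes may share reads.

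Rows for unassigned reads were left out of library sizes and tests, and those on no feature made up 4.21% to 17.9% of counts. No column of the table was left out. Symbols and coordinates were taken from the reference tables by gene identifier. Counts were tested with edgeR 4.0.16 in R 4.3.3 (filterByExpr, TMM, robust quasi-likelihood fit, Benjamini-Hochberg) on the libraries compared, and interactions on 12 libraries. The fitting step was tested on simulated data. CPM used TMM factors over the 36 libraries. Alternatives were DESeq2 1.42.0 (Wald test), other scalings and filters, a fit over the 36 libraries and the share on no feature as a covariate. Removal of a trend over the merged exon length of genes was another. Fits without each library or without libraries 23 and 24 were also run. An exact permutation test of 3 against 3 libraries cannot go below p = 0.1, so single values have no such test. Depth of 13074937 to 20441582 counts limits genes under about 1 CPM to few reads.

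The members and the 19 gene lists were chosen with earlier results of these data known, and no list was tested as a set. Named genes were PHGDH, PSAT1, PSPH, SLC1A4, SLC1A5, PARP1 and CDKN1A, up to 2 called genes of each list in each direction, the 8 largest rises and falls, and up to 4 genes of each interaction in each direction, with a symbol, a mean of at least 50 counts and, for the first comparison, groups that do not overlap. For genes chosen by this filter, the lack of overlap between the groups was fixed in advance. Genes outside the naming rule are marked as named after their values were seen. Promoters were RefSeq windows of GRCh38.p14, from 250 bases before to 50 bases after each start, matched by symbol. Coordinates of genes are in GRCh37. The result for 1 named gene is not reported here.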

Additional observations from a re-analysis of the deposited data

Results flagged for a closer look

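The share of reads on no feature was 17.9% in library 23, 14.9% in library 24 and 8.53% in library 22, each above the highest untreated cis -SG library (7.95%), although library 22 lies within the range of the other libraries of the series.

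The carboplatin response in cis cells differed between -SG and complete medium for 1787 genes by the edgeR interaction term. The named ones with a higher log2 fold change in -SG medium were AHNAK (difference 1.55), FGD6 (1.28), RNF213 (1.24) and UTRN (1.23). Without libraries 23 and 24 the edgeR adjusted p of RNF213 was 0.126 and that of AHNAK 0.0337. Those with a lower one were GPR84 (-1.97), GDF15 (-1.57), EPAS1 (-1.21), PITPNM3 (-1.15) and CDKN1A (-0.75). EPAS1, which had a mean of 0.349 CPM in untreated cis cells, was not called without libraries 23 and 24 (edgeR adjusted p = 0.0765).

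The response without serine and glycine differed between cis and wt cells for 8757 genes. Fitted differences (cis minus wt) were 5.24 for UNC5C, 4.85 for CNNM1, 4.84 for FUT1 and 4.41 for LINC02485, and -8.62 for RUNX3, -8.21 for C15orf48, -8.04 for CX3CL1 and -8.03 for IL32. UNC5C and CNNM1 were at 0 in all untreated cis libraries, and RUNX3, C15orf48 and CX3CL1 in untreated and LINC02485 in treated wt cells had means under 0.2 CPM, so these fitted sizes depend on the prior count and are no bounds. For the genes of serine supply, PARP1 and CDKN1A the differences were -2.72 (CDKN1A), 0.70 (PARP1), 1.40 (PHGDH), 1.18 (PSAT1), 0.60 (PSPH), 0.53 (SLC1A4) and 0.98 (SLC1A5).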

How the results depend on the processing

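No call of a named gene reversed its direction under the alternatives run. Of all called genes in cis -SG carbo against cis -SG, 2 had the opposite sign with the share on no feature as a covariate, and neither was called there. Calls in cis -SG carbo against cis -SG (3253) became 2146 with DESeq2, 1141 in a fit over the 36 libraries and 228 with a minimum of 1 on the log2 scale. Without 1 library they ran from 1666 to 5224. Calls in cis carbo against cis (2702) became 1346, 401 and 45 under the same settings, and 1755 (without the third cis carbo library) to 2554 without 1 library. Interaction calls by medium (1787) became 112 in the fit over the 36 libraries and 69 with the minimum, and 1334 to 3594 without 1 library, the highest without library 22, with a share of higher calls of 30.1% to 48.8% beside 48.9%. With the minimum, calls became 3204 in wt -SG carbo against wt -SG (9969) and 3137 in the interaction by line (8757). Leaving out 1 library gave 9304 to 10744 and 8279 to 9264 there. Total-count scaling shifted the median of all genes in the interaction by line by 0.10 (log2) and gave 5162 of 8952 calls higher. It made 61.1% of calls higher in cis -SG carbo against cis -SG, beside 48.4%, and 62.5% in the interaction by medium. The share on no feature as a covariate gave 2172 calls, 1580 of them shared with the first set. Of 70 named genes, 7 lost their call with DESeq2, 19 without libraries 23 and 24, 22 with the covariate, and 35 in the fit over the 36 libraries. Among the named genes called in cis -SG carbo against cis -SG, those called in at most 3 of the 6 fits without 1 library were PSPH, SLC1A5, PCNA, GDF15, SLC7A5, CTH, NADSYN1, ERCC6, NFKB1, NFKBIA, ELOVL6, CCN1, MT-CO2, VIM, TNFSF14, RSKR, RP11-1109M24.11, ANKRD36C, EPAS1 and IL32. The causes were not tested. No paired analysis was possible because the labels give the libraries of a condition no replicate numbers that are shared between conditions. With 3 libraries a group, depth and the spread between libraries limit genes of low counts most.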

Other observations

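Genes were grouped by merged exon length over all annotated transcripts, a grouping chosen after the values were seen. In cis -SG carbo against cis -SG, genes with more than 15 kb of exonic sequence rose more often than shorter ones. Of 647 such genes 226 rose and 71 fell in cis -SG carbo against cis -SG (median 0.11), 150 rose and 52 fell without libraries 23 and 24 (median 0.06), and 53 rose and 112 fell in complete medium (median -0.02). In wt cells without serine and glycine, 136 of 635 tested genes over 15 kb rose and 283 fell (median -0.25). Of 4044 genes with 2 to 5 kb of exonic sequence 244 rose and 721 fell in cis -SG carbo against cis -SG. There 10.9% of all tested genes rose and 11.6% fell. Removing each library's trend over length left 3230 calls.

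By the span of the gene on the chromosome the longest class went the other way. Of 114 genes that span more than 500 kb, 41 fell and 13 rose (median -0.14), with 40 and 6 without libraries 23 and 24 (median -0.19), 48 and 2 in complete medium (median -0.17) and 71 and 13 in wt cells without serine and glycine (median -0.77). WWOX, which fell by 1.21 on the log2 scale in cis -SG carbo, is one of them. Of 2089 genes that span 100 to 500 kb, 418 rose and 268 fell in cis -SG carbo against cis -SG. There 10.9% of all tested genes rose and 11.6% fell. The classes hold only genes with a mean of at least 50 counts. No difference between the classes was tested.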
